A study of Danio rerio with 4 samples.

Results

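The genes described here encode the subunits of the proteasome, its activators, its inhibitor and the chaperones that assemble it. They are the genes whose zebrafish symbol starts with psma, psmb, psmc, psmd, psme, psmf or psmg, each read from its probe with the highest mean level. This gave 57 of the 13369 genes that could be named on the array. Of these, 55 belong to the proteasome, and psmc3ip and psme3ip1 only carry a subunit's name. Expression was measured in total RNA from testes of zebrafish aged 4 months on 1-colour arrays, 2 per group. The exposed fish had lived for 6 weeks in water with 20 µg/L MCLR (microcystin-LR, made by cyanobacteria and known to inhibit the phosphatases PP1 and PP2A), and the controls with 0 µg/L. The labels name no strain and do not say whether an array holds a single fish or a pool. P-values therefore rest only on the spread between arrays, which may be technical, pooled in part with that of all genes.

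The proteasome is the barrel-shaped protease that degrades proteins tagged with ubiquitin. Its core is built of alpha subunits, which hold the gate, and beta subunits, some of which hold the cutting sites. A cap with a base and a lid binds the tagged protein, removes the tag, unfolds the chain and feeds it into the core. Under interferon, immunoproteasome beta subunits replace the constitutive cutting subunits. In mammals, the alpha subunit PSMA8 and the activator PSME4 (PA200) are known from the proteasome of male germ cells.

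Levels are log2 processed signal relative to the 75th percentile of the array, which is 0 on this scale. Between 81.9% and 88.2% of spots stood well above background, and 0 were saturated. Markers of germ cells (11 of 11 tested) and of Sertoli and Leydig cells (11 of 11) stood well above background on all 4 arrays. Control 2 stood apart in pancreas markers, whose summed signal was 344.4 times the 75th percentile there and 15.7 on control 1, 15.2 on MCLR 1 and 19.2 on MCLR 2. The array codes in the file headers share their first number, 1. Their second number, read here as the position, was 1 and 2 for MCLR and 3 and 4 for control. The effects of group and of position therefore cannot be told apart. Whether the first number stands for a slide is not given, so a shared slide is not established. The number of arrays limits the precision of every value.

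The comparison of MCLR with control asks whether expression of these genes differed after exposure. Of the 55 proteasome genes, 54 were tested, and each of the 54 stood well above background on all 4 arrays. With limma and Benjamini-Hochberg adjustment over 24334 genes (unnamed transcripts counted by their identifier), 0 of the 54 were called (smallest adjusted p = 0.233), as were 0% of all genes. At an unadjusted p under 0.05, 1 gene (psmb11b) was higher and 0 were lower, against 9.21% of all genes in either direction, 8.68% higher and 0.53% lower. That share was lower among bright genes: of the 4729 genes at or above the lower quartile of the proteasome genes' levels, 0.486% passed in either direction. The split over all genes depended on scaling: 2113 were higher and 129 lower, against 948 and 456 with quantile normalization. The median log2 fold change of the 54 genes was -0.024, with 31 lower and 23 higher. All genes tested had a median of 0.082, with 38.6% lower. The 4729 brighter genes had a median of -0.025 with 56.2% lower, near the 57.4% of the proteasome genes. In bulk samples, fewer cells of a type and less RNA per cell cannot be told apart.

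Core and cap genes lay close to no difference. For 36 of the 37, all but psma6l, log2 fold changes ran from -0.28 to 0.13, with 95% intervals between -0.86 and 0.79. Each of these intervals excluded a 2-fold difference, as did 55.9% of those of all genes and 85.6% of those of the brighter genes above. This count of intervals was added after the data were seen, and it was 28 without control 1, 32 without control 2, 16 without MCLR 1 and 6 without MCLR 2. The plot of fold changes by class sets this narrow band beside the immunoproteasome genes.

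**Figure D1:**
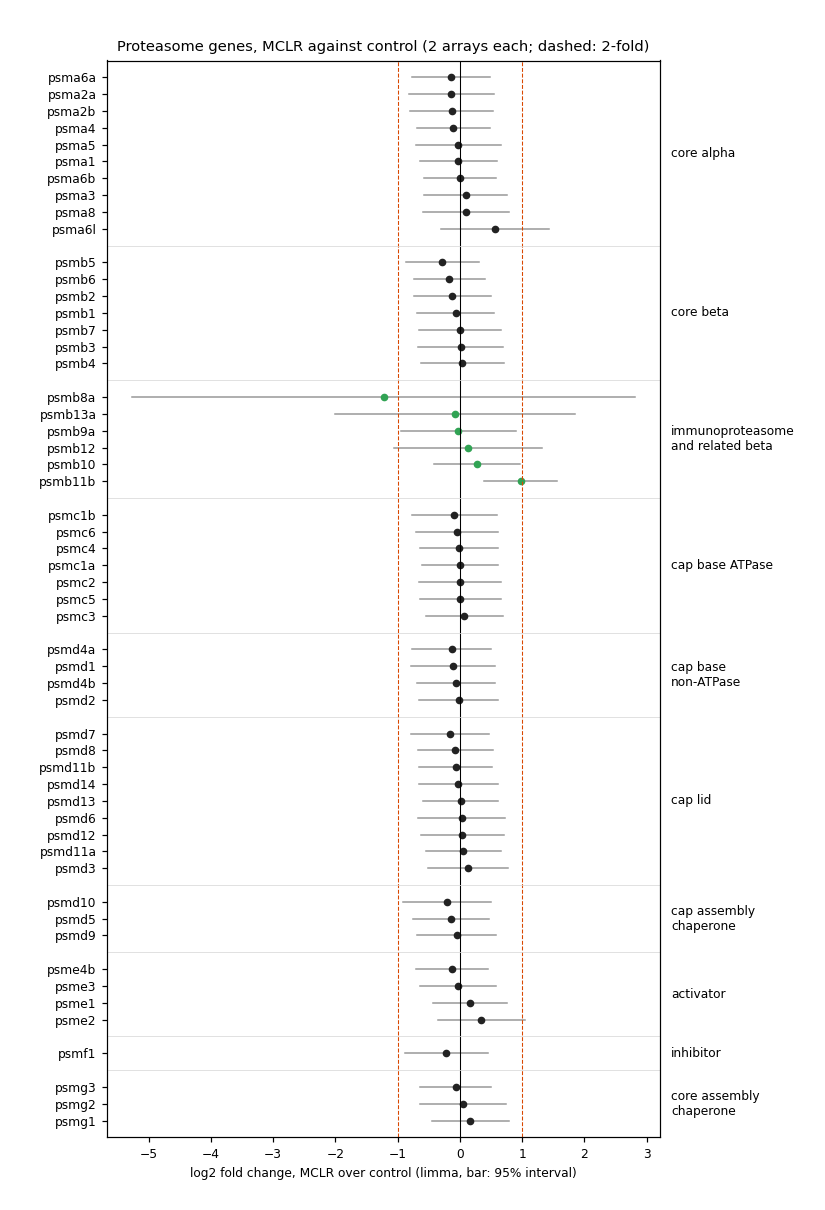
Log2 fold change of MCLR over control (points) with 95% intervals from limma (bars) for the 54 tested proteasome genes, by class; dashed lines mark a 2-fold difference and green points the immunoproteasome class. Among core and cap genes psma6l alone crosses a dashed line, while the interval of psmb8a runs from -5.26 to 2.81.

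Of the 10 alpha subunit genes, 4 were higher and 6 lower (median -0.027). The level of psma6a was 3.05 and 3.04 on the control arrays against 2.73 and 3.08 on the MCLR arrays (arrays 1 and 2 of each group). Its log2 fold change was -0.14 ± 0.25 (SE from limma, n = 2 per group, as for all values below). This SE pools the gene's own variance with that of all genes, so it is not the spread of the 4 arrays alone. The level of psma2a was 3.24 and 3.32 on the control arrays against 2.90 and 3.38 on the MCLR arrays (-0.14 ± 0.27). In both genes the controls lay between MCLR 1, the lowest array, and MCLR 2, the highest. The level of psma8 was 5.20 and 5.55 on the control arrays against 5.28 and 5.67 on the MCLR arrays (0.099 ± 0.28), with overlap. The reference lists psma7 as another name of psma8, and its 3 probes gave log2 fold changes from -0.024 to 0.15. The level of psma6l, a further gene of the alpha 6 type, was -0.71 and -0.0018 on the control arrays against -0.040 and 0.45 on the MCLR arrays (0.56 ± 0.35, adjusted p = 0.831 with limma). Its groups overlapped, since MCLR 1 lay below control 2. Without control 2 its log2 fold change was 0.91 (adjusted p = 0.333 with limma), and without control 1 it was 0.21.

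Of the 7 constitutive beta subunit genes, 3 were higher and 4 lower (median -0.071). The level of psmb5, whose product cuts after hydrophobic residues, was 5.92 and 6.00 on the control arrays against 5.72 and 5.64 on the MCLR arrays (-0.28 ± 0.23, adjusted p = 0.937 with limma). The level of psmb6, whose product cuts after acidic residues, was 3.13 and 3.09 on the control arrays against 2.94 and 2.94 on the MCLR arrays (-0.17 ± 0.23). For both, the MCLR arrays lay below the controls without overlap, although the 3 probes of psmb5 ran from -0.28 to 0.037. The third cutting subunit, psmb7, acts after basic residues and had 4.95 and 5.33 on the control arrays against 5.05 and 5.25 on the MCLR arrays (0.0077 ± 0.26), with overlap. The structural gene psmb4 had 4.99 and 5.18 on the control arrays against 4.93 and 5.33 on the MCLR arrays (0.040 ± 0.27). For psmb3 the levels were 1.54 and 1.28 on the control arrays against 1.21 and 1.62 on the MCLR arrays (0.0094 ± 0.27). In psmb4 and psmb3 MCLR 1 was the lowest array and MCLR 2 the highest.

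Both MCLR arrays lay below both controls in 5 of the 54 genes (psma4, psmb5, psmb6, psme4b and psmg3), against 9.08% of all genes and 13.98% of the brighter genes. They lay above in 3 (psmb11b, psme1 and psme2), against 25.3% of all genes and 6.81% of the brighter genes. The difference was larger than the gap within each group in 5 of 54, against 23.1% of all genes and 12.03% of the brighter genes. The alpha subunit gene psma4, named after its values were seen, had 4.99 and 5.11 on the control arrays against 4.96 and 4.92 on the MCLR arrays (-0.11 ± 0.23).

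The 7 ATPase genes of the cap base encode the ring that unfolds the substrate, and 4 were higher and 3 lower, from -0.089 to 0.069. The level of psmc1a was 4.94 and 5.05 on the control arrays against 4.86 and 5.14 on the MCLR arrays (0.00047 ± 0.25). The level of psmc1b was 3.92 and 4.18 on the control arrays against 3.74 and 4.17 on the MCLR arrays (-0.089 ± 0.28). The level of psmc2 was 4.14 and 4.24 on the control arrays against 3.98 and 4.40 on the MCLR arrays (0.00054 ± 0.26). In all 3 MCLR 1 was the lowest array by the probe tested, while the other psmc1a probes were lowest on control 2. The level of psmc3 was 3.12 and 3.38 on the control arrays against 3.25 and 3.38 on the MCLR arrays (0.069 ± 0.25). The level of psmc4 was 3.71 and 3.68 on the control arrays against 3.51 and 3.85 on the MCLR arrays (-0.018 ± 0.25). The groups overlapped in both. The level of psmc5 was 5.16 and 5.51 on the control arrays against 5.25 and 5.43 on the MCLR arrays (0.0049 ± 0.26). The level of psmc6 was 3.01 and 2.80 on the control arrays against 2.67 and 3.05 on the MCLR arrays (-0.043 ± 0.26). By the probe tested, MCLR 2 lay above MCLR 1 by more than the groups differed in 7 of 7 ATPase genes.

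The 4 non-ATPase genes of the base had log2 fold changes below 0 (median -0.091), each with overlap. The scaffold gene psmd1 had 4.71 and 4.93 on the control arrays against 4.49 and 4.91 on the MCLR arrays (-0.12 ± 0.27). The other scaffold gene, psmd2, had 3.59 and 3.48 on the control arrays against 3.35 and 3.69 on the MCLR arrays (-0.017 ± 0.25). By the probe tested, MCLR 1 was the lowest array in both. The ubiquitin receptor gene psmd4a had 3.60 and 3.59 on the control arrays against 3.29 and 3.63 on the MCLR arrays (-0.14 ± 0.25). Its paralogue psmd4b had 1.08 and 1.0999 on the control arrays against 0.86 and 1.19 on the MCLR arrays (-0.062 ± 0.25). The other psmd4b probe gave 0.68 but was dim, with -4.31 and -4.25 on the control arrays against -3.45 and -3.75 on the MCLR arrays. In both paralogues, by the probe tested, the controls nearly coincided and MCLR 1 lay below them. Other probes of these base genes had another order. Those of psmd1 and psmd4a were lowest on MCLR 2, and those of psmd2 and psmd4b were highest on MCLR 1.

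In the lid, 5 genes were higher and 4 lower (median 0.016). The level of psmd14, whose product removes ubiquitin from the substrate, was 4.01 and 4.04 on the control arrays against 3.82 and 4.18 on the MCLR arrays (-0.024 ± 0.25). Its partner psmd7 had the most negative value of the class, with 3.46 and 3.34 on the control arrays against 3.08 and 3.40 on the MCLR arrays (-0.16 ± 0.25). Both were lowest on MCLR 1 by the probe tested, but the other psmd7 probe was lowest on MCLR 2. The level of psmd8 was 1.25 and 1.07 on the control arrays against 1.00 and 1.17 on the MCLR arrays (-0.077 ± 0.24). The level of psmd11a was 1.50 and 1.71 on the control arrays against 1.64 and 1.69 on the MCLR arrays (0.056 ± 0.24). The most positive value was that of psmd3, with 3.23 and 3.27 on the control arrays against 3.57 and 3.18 on the MCLR arrays (0.13 ± 0.26). Of the 54 genes, psmd3 was the one that was highest on MCLR 1.

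The cap assembly chaperones had values below 0 in 3 of 3 genes, each with overlap and lowest on MCLR 1 by the probe tested. The other psmd5 probe was lowest on control 2. The level of psmd10 (gankyrin) was 1.82 and 2.28 on the control arrays against 1.69 and 1.98 on the MCLR arrays (-0.21 ± 0.28). The level of psmd5 was 3.004 and 2.92 on the control arrays against 2.70 and 2.93 on the MCLR arrays (-0.15 ± 0.24). The level of psmd9 was 2.44 and 2.63 on the control arrays against 2.34 and 2.62 on the MCLR arrays (-0.053 ± 0.25). The chaperones psmg1 and psmg2 act as a pair in core assembly. The level of psmg1 was 3.23 and 3.43 on the control arrays against 3.39 and 3.61 on the MCLR arrays (0.17 ± 0.25), while its other probe gave 0.51. The level of psmg2 was 3.28 and 3.63 on the control arrays against 3.32 and 3.68 on the MCLR arrays (0.047 ± 0.27). Both overlapped between the groups. The level of psmg3, a further core chaperone, was 1.44 and 1.42 on the control arrays against 1.37 and 1.35 on the MCLR arrays (-0.069 ± 0.23), without overlap. The inhibitor gene psmf1 had -0.14 and -0.55 on the control arrays against -0.65 and -0.49 on the MCLR arrays (-0.22 ± 0.27), and control 1 stood above the other arrays.

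The MCLR arrays differed from each other more than the groups did in 42 of the 54 genes (57.5% of all genes and 69.5% of the brighter genes). MCLR 2 lay above MCLR 1 in 48 of the 54, against 44.8% of all genes and 61.4% of the brighter genes. The median of that difference was 0.30 for the 54 genes, -0.055 for all genes and 0.084 for the brighter genes. MCLR 1 was the lowest array in 31 of 54 (17.1% of all genes and 33.6% of the brighter genes). MCLR 2 was the highest in 29 (25.7% and 27.3%). These counts use the probe tested of each gene, and other probes of some genes had another order. Liver markers summed to 20.5 times the 75th percentile on control 1, 46.5 on control 2, 23.2 on MCLR 1 and 47.4 on MCLR 2, higher on replicate 2 of each group, and their part in this order was not tested. The direction of the group followed the MCLR array used. Without MCLR 1, 43 of 54 were higher in MCLR (median 0.10, against 0.077 for all genes). Without MCLR 2, 43 were lower (median -0.19, against 0.11 for all genes). With scaling to the median in place of the 75th percentile, 45 of 54 were lower (median -0.12). That scaling lowered the fold of every gene by the same amount, and the median of all genes went from 0.082 to -0.014.

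**Figure D2:**
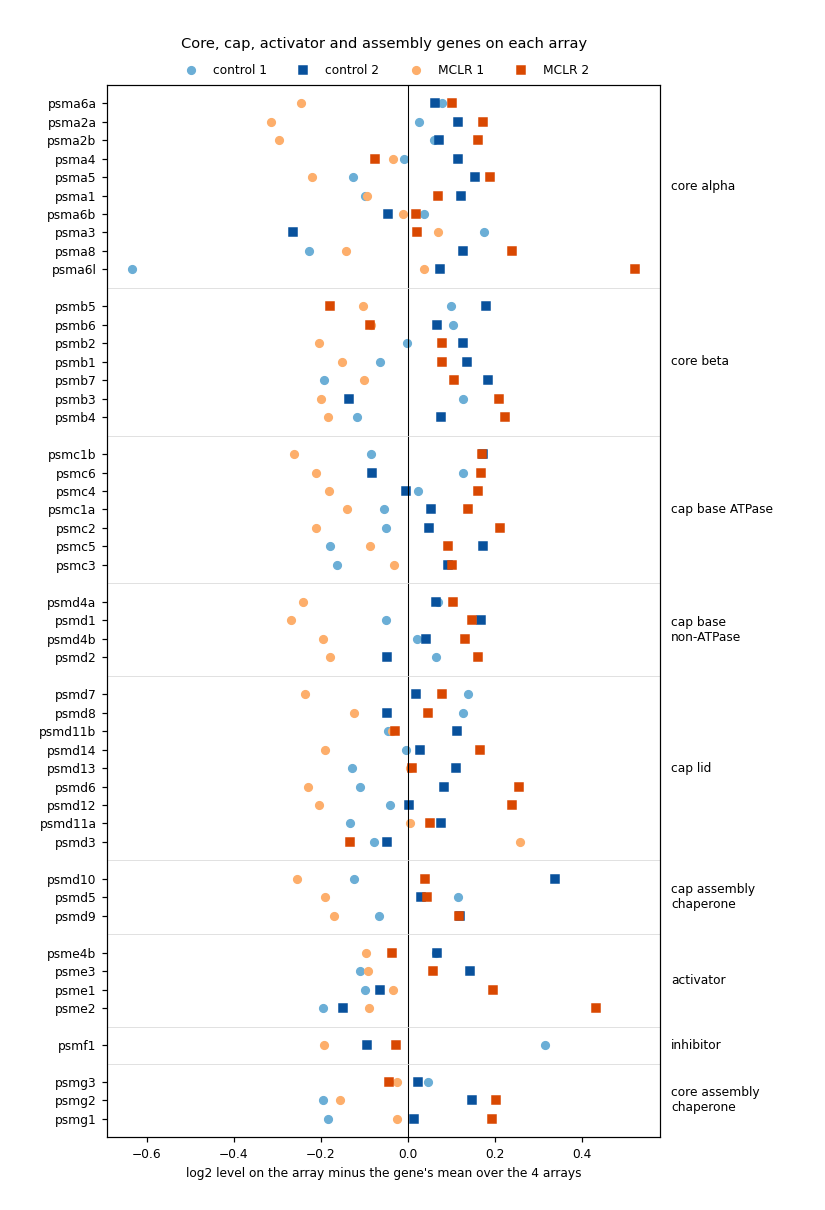
Log2 level on each array minus the gene's mean over the 4 arrays, by class, without the immunoproteasome genes; circles are replicate 1 and squares replicate 2, blue for control and orange for MCLR. By the probe tested of each gene, MCLR 1 stands at the low end and MCLR 2 at the high end in many rows, and psmd3 shows the opposite order.

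Among other large complexes, MCLR 2 lay above MCLR 1 in 82.0% of 89 respiratory chain genes (median difference 0.18) and in 49.4% of 83 cytosolic ribosomal protein genes. For the 8 genes of the CCT chaperonin, which folds actin and tubulin, the median difference was 0.27, near that of the proteasome genes. The ribosomal protein genes differed instead between the controls, by a median of 0.42, where the proteasome genes differed by 0.093. Between the groups, the median log2 fold change was 0.054 for ribosomal proteins, -0.11 for the respiratory chain and 0.013 for CCT. The differences between these lists were not tested.

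**Figure D3:**
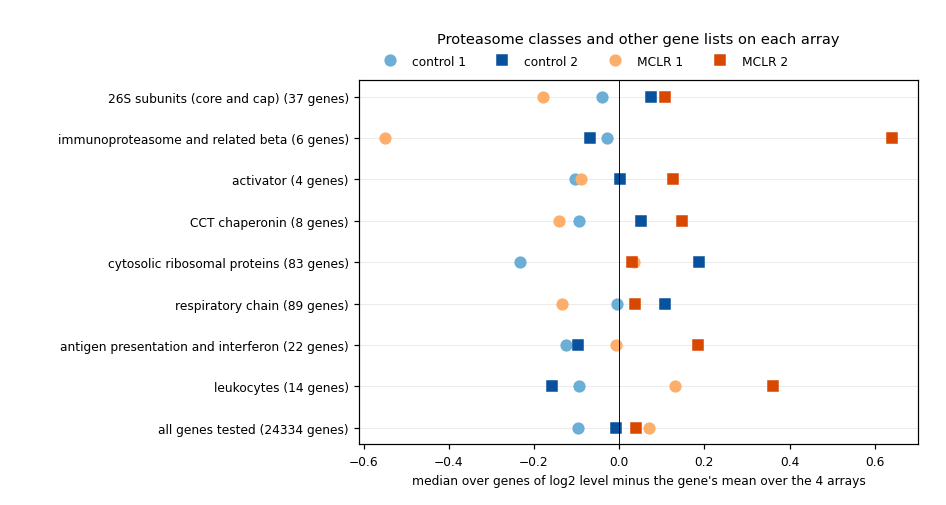
Median over the genes of each list of the log2 level minus the gene's mean over the 4 arrays, with the arrays as circles (replicate 1) and squares (replicate 2). Core and cap genes stand at -0.18 on MCLR 1 and 0.11 on MCLR 2, and the immunoproteasome class at -0.55 and 0.64.

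The immunoproteasome and related beta genes had the largest median difference of MCLR 2 from MCLR 1 of the 10 classes (1.15). MCLR 2 was the highest array in 6 of 6 tested genes and MCLR 1 the lowest in 4, and the groups overlapped in 5. The level of psmb8a, which takes the place of psmb5 in the immunoproteasome, was 0.18 and -0.14 on the control arrays against -3.86 and 1.45 on the MCLR arrays. MCLR 2 was thus 39.4-fold above MCLR 1, a gap that 10 of 24334 genes reached, psmb8a included. Its other probe had -0.51 and -0.39 on the control arrays against -2.88 and 0.79 on the MCLR arrays, the same order of the MCLR arrays. In the authors' deposited table of log2 values the gap was 5.64. The MCLR 1 level of -3.86 was dim, as the lowest level well above background on that array was -5.16. Between the groups the log2 fold change of psmb8a was -0.59 after normexp background correction and -1.23 ± 1.61 in the main fit (adjusted p = 0.999 with limma). It was 1.42 without MCLR 1 (adjusted p = 0.680 with limma) and -3.88 without MCLR 2 (adjusted p = 0.240 with limma), so its sign was that of the MCLR array left.

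The level of psmb13a, a related beta subunit gene, was -2.26 and -3.54 on the control arrays against -4.02 and -1.93 on the MCLR arrays (-0.076 ± 0.77), a 4.24-fold gap between the MCLR arrays. The level of psmb12, another such gene, was 0.60 and 0.86 on the control arrays against 0.18 and 1.54 on the MCLR arrays (0.13 ± 0.48). The level of psmb9a, which takes the place of psmb6, was -0.39 and -0.65 on the control arrays against -1.01 and -0.072 on the MCLR arrays (-0.024 ± 0.37). In these 3 genes the controls lay between MCLR 1 and MCLR 2. The level of psmb10, which takes the place of psmb7, was 2.41 and 2.65 on the control arrays against 2.58 and 3.03 on the MCLR arrays (0.28 ± 0.28), with control 1 the lowest array. Its value was 0.50 without MCLR 1 and 0.054 without MCLR 2.

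In the gene order of the GRCz12tu assembly, psmb13a, psmb8a, psmb12 and psmb9a are neighbours, between the MHC class I gene mhc1uba and the peptide transporter gene tap2a. These neighbours were looked up after the values were seen. The level of mhc1uba was 2.03 and 1.17 on the control arrays against -4.34 and 3.38 on the MCLR arrays, a 212-fold gap between the MCLR arrays that 2 of 24334 genes reached, mhc1uba included. Its level on MCLR 1 was dim. Between the groups its log2 fold change was -2.08 in the main fit and -1.09 after normexp background correction. Its other 2 probes were also highest on MCLR 2. One was not well above background on MCLR 1. The other had -2.80 and -3.79 on the control arrays against -3.47 and -2.12 on the MCLR arrays, a smaller gap between the MCLR arrays and control 2 as the lowest array. The level of tap2a was 0.74 and 0.33 on the control arrays against -0.080 and 0.50 on the MCLR arrays (-0.32 ± 0.31). From mhc1uba to tap2a MCLR 1 was the lowest array in 6 of 6 genes by the probe tested, though not by the last-named probe of mhc1uba. Of these, 4 are the proteasome genes already seen to be lowest on MCLR 1, so only mhc1uba and tap2a add to the count. Over all genes, MCLR 1 was the lowest array in 17.1%. That share depended on level: it was 6.48% of genes with a mean level below -4 and 30.5% of those above 0. MCLR 1 was not the lowest in the next genes with a probe, tapbp.2 and brd2a, where MCLR 2 lay below MCLR 1 by 0.28 and 0.26. Further out it was again the lowest in kifc1, rxrba and sdha, at -0.11, -0.22 and -0.27 from the gene's mean. In daxx, tapbp.1, hsd17b8 and col11a2 it was not. Zebrafish are known to carry divergent haplotypes of this MHC region. The genotype of the fish is not given in the labels, and its part in these values was not tested.

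**Figure D4:**
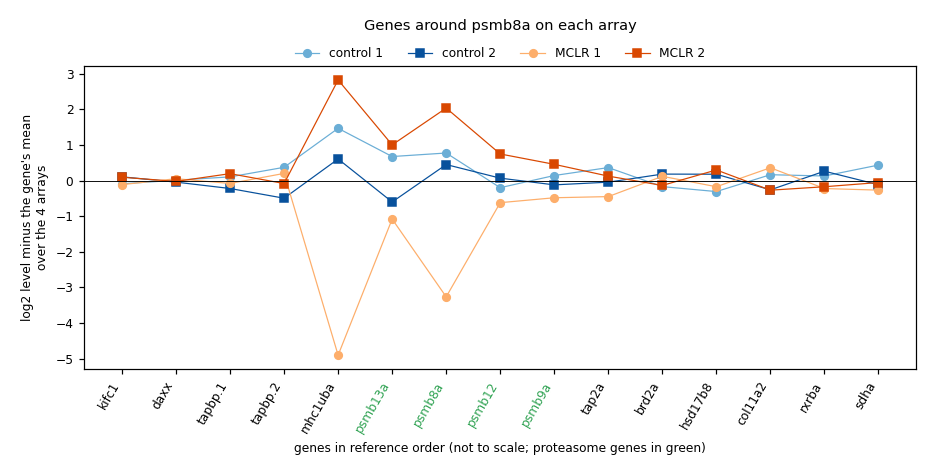
Log2 level minus the gene's mean over the 4 arrays for genes around psmb8a, in reference order and not to scale, with proteasome genes named in green. By the probe tested of each gene, MCLR 1 is the lowest array from mhc1uba to tap2a, with -4.90 in mhc1uba and -3.26 in psmb8a. It is also the lowest in kifc1, rxrba and sdha.

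The genes psmb11a and psmb11b belong to the type known from the thymus of mammals. The level of psmb11b was -4.96 and -4.83 on the control arrays against -3.97 and -3.87 on the MCLR arrays. Both MCLR arrays lay above the controls (0.97 ± 0.24, unadjusted p = 0.00725, adjusted p = 0.233 with limma). The signal was dim, and the 2708 genes that had a mean level below -4 and, like psmb11b, stood well above background on all 4 arrays had a median log2 fold change of 0.41. The value of psmb11b was 0.56 with quantile normalization (adjusted p = 0.952 with limma) and 0.14 after normexp background correction (adjusted p = 0.996 with limma). The level of psmb11a was -6.76 and -5.50 on the control arrays against -5.24 and -5.29 on the MCLR arrays, and it was not tested, since it stood well above background on MCLR 2 alone.

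The products of psme1 and psme2 form the interferon-induced activator ring. The level of psme1 was 2.88 and 2.91 on the control arrays against 2.94 and 3.17 on the MCLR arrays (0.16 ± 0.24). The level of psme2 was 0.43 and 0.48 on the control arrays against 0.53 and 1.06 on the MCLR arrays (0.34 ± 0.28, adjusted p = 0.932 with limma). Both MCLR arrays lay above the controls in both genes, and without MCLR 2 the value was 0.048 for psme1 and 0.082 for psme2. The nuclear activator gene psme3 had 2.33 and 2.58 on the control arrays against 2.35 and 2.50 on the MCLR arrays (-0.033 ± 0.25), with overlap. The level of psme4b, related to PSME4 of mammals, was 1.58 and 1.58 on the control arrays against 1.42 and 1.48 on the MCLR arrays (-0.13 ± 0.23), with both MCLR arrays below the controls. The 95% interval of psme4b, from -0.71 to 0.44, excluded a 2-fold difference.

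Among antigen presentation and interferon genes, 17 of 22 had values above 0 (median 0.19), and MCLR 2 was the highest array in 14. Values above 0 were found in 61.4% of all genes and in 3762 of the 8207 genes with a mean level above 0. The median level of the 22 was 0.97. At an unadjusted p under 0.05, 2 were higher and 0 lower, against 8.68% of all genes higher. That background depended on level. It was 1648 of the 4642 genes with a mean level below -4 and 43 of the 8207 above 0. The interferon regulatory factor gene irf1b had 0.71 and 1.05 on the control arrays against 1.62 and 2.13 on the MCLR arrays, without overlap (0.99 ± 0.30, adjusted p = 0.342 with limma). Its other probe gave 0.26, and the mean of both gave 0.62, which missed the unadjusted threshold (adjusted p = 0.486 with limma). So did its value without control 1 (0.82) and without MCLR 2 (0.74). The dim peptide-trimming gene erap2, with 1 probe, had -4.26 and -3.95 on the control arrays against -3.37 and -3.31 on the MCLR arrays (0.77 ± 0.25, adjusted p = 0.399 with limma). For irf1a, also with 1 probe, the levels were -3.11 and -1.92 against -1.60 and -1.71 (0.85 ± 0.43, adjusted p = 0.710 with limma). Leukocyte markers had values above 0 in 13 of 14 tested (median 0.29), with MCLR 2 the highest array in 8. Over all genes, 61.4% had values above 0 and 25.7% were highest on MCLR 2. The markers mpx, rag1 and csf1ra lay below -4 on every array. Of the 2708 dim genes described for psmb11b, 82.6% had values above 0, with a median of 0.41. The summed signal of the leukocyte markers was 25.4 and 17.9 times the 75th percentile in the controls and 25.0 and 32.1 times in MCLR. Each of the 14 stood well above background on all arrays. The part of leukocytes in the immunoproteasome and psme values was not tested.

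Other lists of the pathway had 0 adjusted calls by limma. Of 18 genes for proteins that bind or assist the proteasome, 9 were higher and 9 lower, 0 at an unadjusted p under 0.05. The nuclear import factor gene akirin2 had 4.51 and 4.84 on the control arrays against 4.25 and 4.46 on the MCLR arrays, without overlap (-0.32 ± 0.26), but its 4 probes ran from -0.32 to 0.071. Its paralogue akirin1 had a log2 fold change of -0.21 ± 0.23, and the ubiquitin shuttle gene rad23b one of 0.26 ± 0.27. Of 30 genes for ubiquitin, its activating and conjugating enzymes and the SUMO enzyme (ube2ia and ube2ib), 18 were higher and 12 lower. At an unadjusted p under 0.05 there was 1, against 9.21% of all genes and 0.486% of the brighter genes. This was the conjugating enzyme gene ube2g2, with -0.91 and 0.35 on the control arrays against 0.97 and 0.74 on the MCLR arrays (1.14 ± 0.45, adjusted p = 0.532 with limma), whose controls differed more than the groups and whose other probe gave 0.18. The conjugating enzyme variant gene ube2v1 had a log2 fold change of 0.38 ± 0.27, and the SUMO enzyme gene ube2ia one of -0.31 ± 0.25.

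Of 12 genes around p97, the ATPase that extracts tagged proteins, 6 were higher and 6 lower, 0 at an unadjusted p under 0.05. Their smallest p-values belonged to faf1 (0.27 ± 0.30), sel1l (-0.16 ± 0.23) and ubxn4 (0.16 ± 0.23), and the probes of sel1l and ubxn4 had both signs. Of 12 genes for factors tied to proteasome gene transcription, 6 were higher and 6 lower, 0 at an unadjusted p under 0.05. The factor gene nfe2l3 had 3.22 and 3.30 on the control arrays against 2.77 and 2.998 on the MCLR arrays, without overlap (-0.38 ± 0.24), but its 4 probes ran from -0.43 to 0.23. The dim nfe2l1a had a log2 fold change of 0.51 ± 0.34, which turned to -0.082 with quantile normalization, -0.040 after normexp and -0.084 in the authors' deposited table. The value of ngly1, whose product processes NFE2L1 in mammals, was 0.27 ± 0.23.

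The level of psmc3ip, whose product assists the meiotic recombinases, was 2.96 and 2.93 on the control arrays against 3.03 and 2.96 on the MCLR arrays (0.046 ± 0.23). The level of psme3ip1, whose product binds PSME3 in mammals, was 1.68 and 1.72 on the control arrays against 1.56 and 1.57 on the MCLR arrays (-0.13 ± 0.23). Both stayed within the range of the core and cap genes. Probes of a gene did not always share a sign: of 34 proteasome genes with more than 1 tested probe, 14 had log2 fold changes of both signs, and the highest and lowest probe differed by a median of 0.17.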

How the data were processed

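Cy3-labelled testis RNA was read on 1-colour Agilent arrays. Per the file headers, the deposited processed signal is an intensity that Agilent Feature Extraction (11.0.1.1, per the submitters' processing notes) produced from spot and background intensities, with a score of 0 or 1 for marks such as well above background. The authors' deposited table holds log2 values with the same median on each array (5.90); how they were normalized is not given in the sources used here.

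Here, the log2 75th percentile of an array was subtracted from its log2 signals. Outlier-marked spots were dropped (60 probes lost), and 25949 probes (59.6%) got a gene symbol from the reference tables (matched on transcript identifier); the others are unnamed here. A gene was tested if its probe stood well above background on both arrays of a group. The test was limma 3.58.1 in R 4.3.3 (two-sided, group as the only term, Benjamini-Hochberg threshold 0.05). It was also run on data simulated with independent errors from its own fitted variances, which cannot show how well it suits these arrays. The standard errors, intervals and p-values of limma use a variance pooled with that of all genes (3.52 prior and 2 residual degrees of freedom). At the median standard error of 0.28, a log2 fold change of 0.69 was needed for an unadjusted p of 0.05. Alternatives were quantile, median and normexp (offset 50) processing, the deposited values, other filters, the mean of probes, the replicate number as a block, another prior, and leaving out each array. Figures used matplotlib 3.10.9.

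Members and lists were chosen with earlier results of these data known. Named genes are the 2 lowest and 2 highest folds of each class (all in classes of up to 4) and preset catalytic, immunoproteasome, ATPase, receptor, deubiquitinase, activator and inhibitor genes. In each pathway list the 3 smallest p-values are named. No coordinates or sequences are given, since the reference tables used here hold another assembly and no sequence.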

Additional observations from a re-analysis of the deposited data

How the results depend on the processing

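Adjusted calls by limma among the 54 proteasome genes numbered 0 under each alternative run. Over all genes they numbered 215 with scaling to the median, 2 with a trended and robust prior and 0 to 322 on leaving out each array (173 higher and 41 lower without control 1, and 322 in all without control 2). Proteasome genes at an unadjusted p under 0.05 numbered 0 with quantile normalization, 0 after normexp, 0 from the deposited values and 1 to 2 on leaving out each array, the second being psma6l without control 2 and psmb8a without either MCLR array. Genes of the whole array at that threshold, higher and lower, numbered 409 and 211 after normexp, 945 and 475 from the deposited values, 1174 and 115 with all arrays above background and 3194 and 127 with no filter. Core and cap intervals that exclude a 2-fold difference numbered 6 to 32 on leaving out each array, which also removes a degree of freedom, and 32 with scaling to the median. With the replicate number as a block, 0 genes were called and no call changed. In that fit psmb11b alone of the proteasome genes had an unadjusted p under 0.05 (adjusted p = 0.302 with limma). Deviations of same-numbered arrays from their group means correlated at 0.19 over genes. With 2 arrays per group this is a single value, the same for both pairs by construction, and it does not establish a pairing. The array codes in the file headers did not tell slides apart, so no slide block was fitted.

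Scaling to the median changes 1 constant per array, so it lowered the fold of every gene and every class median by the same amount. Class medians fell, for example, to -0.080 (lid) and -0.031 (activators). On leaving out each array they ran from -0.27 to 0.095 (cap base non-ATPase), -0.16 to 0.059 (cap lid), -0.030 to 0.16 (activator), -0.060 to 0.23 (core assembly chaperone), -0.19 to 0.10 (all proteasome genes). Most folds lie near 0. Changes of sign were looked for only in the named genes, so proteasome genes not listed here may turn as well. With scaling to the median, signs turned through the shift shared by all genes, and for the other settings the cause was not tested. Scaling to the median gave -0.086 for psmb3, -0.056 for psmb4, -0.088 for psmb7, -0.095 for psmc1a, -0.095 for psmc2, -0.027 for psmc3, -0.091 for psmc5, -0.039 for psmd11a, -0.049 for psmg2 and -0.050 for psmc3ip. Normexp gave -0.015 for psmb4, -9.7e-05 for psmc1a, 0.018 for psmc1b, 0.041 for psmc4, -0.036 for psmc5, 0.0029 for psmd1, 0.0032 for psmd2, 0.033 for psmd14, 0.020 for psmd9, 0.0026 for psme3 and -0.040 for nfe2l1a. The mean of a gene's probes gave -0.0010 for psmb4, -0.0090 for psmb7, 0.070 for psmc4, 0.034 for psmc6, 0.071 for psmd2, 0.31 for psmd4b, 0.031 for psme3 and -0.0035 for psmc3ip. Quantile normalization gave 0.032 for psmc4, -0.0094 for psmc5, 0.025 for psmd2, 0.019 for psmd14, 0.0041 for psme3 and -0.082 for nfe2l1a. The deposited values gave 0.031 for psmc4, -0.014 for psmc5, 0.023 for psmd2, 0.018 for psmd14, 0.0030 for psme3 and -0.084 for nfe2l1a. On leaving out each array, signs turned for psma2a (-0.38 to 0.10), psma6a (-0.32 to 0.032), psma8 (-0.092 to 0.29), psmb3 (-0.20 to 0.21), psmb4 (-0.16 to 0.24), psmb7 (-0.18 to 0.20), psmb12 (-0.55 to 0.81), psmb13a (-1.12 to 0.97), psmb8a (-3.88 to 1.42), psmb9a (-0.49 to 0.45), psmc1a (-0.14 to 0.14), psmc1b (-0.31 to 0.13), psmc2 (-0.21 to 0.21), psmc3 (-0.059 to 0.20), psmc4 (-0.19 to 0.15), psmc5 (-0.17 to 0.18), psmc6 (-0.23 to 0.15), psmd1 (-0.33 to 0.089), psmd2 (-0.19 to 0.15), psmd4a (-0.31 to 0.037), psmd4b (-0.23 to 0.10), psmd11a (-0.048 to 0.16), psmd14 (-0.20 to 0.15), psmd3 (-0.069 to 0.32), psmd8 (-0.16 to 0.010), psmd10 (-0.45 to 0.017), psmd9 (-0.20 to 0.091), psme3 (-0.16 to 0.093), psmg2 (-0.13 to 0.23), faf1 (-0.051 to 0.58), mhc1uba (-5.94 to 1.79).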
